A study of Mus musculus with 16 samples.

Results

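The neuregulin and epidermal growth factor (EGF) family was followed in mouse left ventricle through 9 genes, 5 ligands (Nrg1, Hbegf, Areg, Ereg and Btc) and 4 receptors (Egfr, Erbb2, Erbb3 and Erbb4). The genes were chosen by name, with earlier results of these data known. All 9 were found among the 55492 genes of the deposited table. Left ventricles of 16 male C57BL/6 mice, 8 to 12 weeks old, were flash-frozen, pulverized and sequenced after rRNA depletion. PKM2fl/fl mice carry loxP-flanked exon 10 of Pkm and served as controls, and PKM2-/- mice lack that exon in every tissue, having been made with Cre under a CMV promoter that was later bred away. Each genotype had 2 unoperated (baseline) hearts, 3 hearts collected 3 days after sham surgery, and 3 collected 3 days after myocardial infarction (MI) by permanent ligation of the left anterior descending artery. The question put to these data was how the ligands and receptors differed between infarcted and sham hearts and between genotypes. All values are normalized counts, that is reads per gene divided by the size factor of the library, and because whole tissue was sequenced, fewer cells of a type and less RNA per cell cannot be told apart.

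The receptors of this family are tyrosine kinases of the cell surface that pair with each other when a ligand binds. EGFR binds EGF-type ligands, ERBB3 and ERBB4 bind neuregulins, ERBB2 binds no known ligand and acts as a partner, and ERBB3 has little kinase activity of its own. In the heart, neuregulin-1 made by endothelial cells acts on ERBB4 and ERBB2 of cardiomyocytes, and most ligands are made as membrane proteins that are released by proteases.

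The libraries held 20623769 to 71855101 reads on genes, and the most abundant gene took 8.43% to 25.1% of them. The 8 cardiomyocyte markers were present in every group, with summed normalized counts of 789413 to 1016910 in the 10 baseline and sham hearts and 176807 to 406338 in the 6 MI hearts. Of these 8 markers, 7 fell with MI in PKM2fl/fl hearts and 8 in PKM2-/- hearts, and the 8 monocyte and macrophage markers rose in both genotypes (limma-trend). Pkm, whose reads come from both the PKM1 and PKM2 forms and therefore do not check the deletion, had means of 8662 to 10740 in PKM2fl/fl groups and 12480 to 13050 in PKM2-/- groups.

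The sequence just upstream of the gene start was read for 5 of the 9 members, namely Areg, Btc, Egfr, Erbb2 and Erbb4. The windows came from the promoter table of RefSeq (GRCm38.p6). No window was read for Nrg1, Hbegf, Ereg or Erbb3, so the motif matches below do not cover them. All 5 windows are shown so that they can be compared between genes with unlike values after MI, where Egfr rose, Erbb4 and Btc fell, Erbb2 did not pass the test and Areg stayed near 0 reads. Each window is 250 bases, written 5′ to 3′ on the strand of the gene, with matches to 6 motifs in capitals. The windows are chr5:91139349-91139598 (forward strand) for Areg, chr5:91402995-91403244 (reverse) for Btc, chr11:16751953-16752202 (forward) for Egfr, chr11:98412234-98412483 (forward) for Erbb2 and chr1:69108060-69108309 (reverse) for Erbb4, the last inside the annotated gene, whose outermost start lies further upstream.
Areg promoter: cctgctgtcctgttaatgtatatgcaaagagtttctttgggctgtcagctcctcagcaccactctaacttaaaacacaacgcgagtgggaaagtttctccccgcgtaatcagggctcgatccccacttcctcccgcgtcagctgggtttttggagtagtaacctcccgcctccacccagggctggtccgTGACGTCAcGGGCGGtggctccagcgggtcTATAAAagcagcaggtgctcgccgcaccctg
Btc promoter: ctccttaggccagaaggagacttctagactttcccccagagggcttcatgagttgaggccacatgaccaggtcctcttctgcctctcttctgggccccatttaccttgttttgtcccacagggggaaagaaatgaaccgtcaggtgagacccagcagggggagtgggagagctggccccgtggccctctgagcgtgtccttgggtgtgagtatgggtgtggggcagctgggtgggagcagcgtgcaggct
Egfr promoter: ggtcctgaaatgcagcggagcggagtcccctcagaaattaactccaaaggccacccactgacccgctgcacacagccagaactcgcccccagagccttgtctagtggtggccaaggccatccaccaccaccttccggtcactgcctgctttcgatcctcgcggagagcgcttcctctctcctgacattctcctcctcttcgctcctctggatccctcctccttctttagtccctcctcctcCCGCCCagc
Erbb2 promoter: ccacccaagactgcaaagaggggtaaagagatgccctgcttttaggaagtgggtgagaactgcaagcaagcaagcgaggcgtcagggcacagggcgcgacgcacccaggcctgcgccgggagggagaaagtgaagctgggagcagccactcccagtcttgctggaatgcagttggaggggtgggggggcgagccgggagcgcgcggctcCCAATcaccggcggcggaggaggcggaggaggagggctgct
Erbb4 promoter: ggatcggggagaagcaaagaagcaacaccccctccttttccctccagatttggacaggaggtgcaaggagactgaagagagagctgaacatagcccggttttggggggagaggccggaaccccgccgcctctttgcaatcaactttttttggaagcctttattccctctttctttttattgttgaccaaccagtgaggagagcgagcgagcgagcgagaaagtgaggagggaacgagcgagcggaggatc

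The motifs were searched on both strands as the box TATAAA, the cyclic AMP response element TGACGTCA, the AP-1 site TGACTCA or its other form TGAGTCA, the GC box GGGCGG, the E-box CACGTG and the box CCAAT. The Areg window held TATAAA, TGACGTCA and GGGCGG, which occur in 13%, 1.62% and 32.9% of the 27025 promoter windows of the same length. The Egfr window held GGGCGG on its reverse strand, and the Erbb2 window held CCAAT, a motif of 34.5% of windows. The Btc and Erbb4 windows held none of the motifs, and AP-1 and E-box letters, found in 4.43% and 6.05% of windows, were in none of the 5. The GC content of the windows was 54% (Erbb4), 57.2% (Areg), 59.6% (Btc), 60.8% (Egfr) and 66% (Erbb2), against a median of 52% over all windows. These matches describe letters in a window and not binding.

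Areg, Ereg and Btc are neighbours on chromosome 5 (GRCm38.p6). Together with Epgn, which encodes a further EGF-type ligand, they are the only 4 protein-coding genes in 375 kilobases, in the order Epgn (91027517 to 91035212), Ereg (91074617 to 91093649), Areg (91139599 to 91148432) and Btc (91357261 to 91402994). The gaps between them are 39404, 45949 and 208828 bases. The 4 neighbours differed in level and in response, since Ereg rose and Btc fell with MI while Areg and Epgn had group means of at most 2.67 and 3.00 normalized counts.

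Ereg (epiregulin), which binds EGFR and ERBB4, had the largest change of the 8 members that could be tested. It had 3.92 and 3.98 normalized counts in the PKM2fl/fl baseline hearts, 3.53, 4.11 and 1.96 after sham surgery, and 156, 86.8 and 182 after MI. In PKM2-/- hearts it had 0 reads in both baseline libraries, 12.9, 9.14 and 15.1 normalized counts after sham surgery, and 208, 175 and 162 after MI. All 6 MI hearts were above all 10 other hearts. Against sham, Ereg rose 33.3-fold in PKM2fl/fl hearts (log2 fold change 5.06, standard error 0.36, adjusted p = 9.09e-08 from limma with Benjamini-Hochberg adjustment) and 13.8-fold in PKM2-/- hearts (3.79, adjusted p = 7.17e-07). The fold changes are on the log2(value + 1) scale, which understates the change of a gene as low as Ereg in sham hearts, where it had 4 to 14 reads. Markers of other cell types rose in the same hearts. The summed level of the 8 monocyte and macrophage markers was 5423 to 10012 in the 6 sham hearts and 20834 to 32230 in the 6 MI hearts, and that of the 8 neutrophil markers was 318 to 1744 and 1596 to 6094, with 4 of 8 rising in each genotype. The 8 fibroblast markers, of which 6 rose and 1 fell in each genotype, had sums of 19878 to 33690 in the sham hearts and 91868 to 131213 in the MI hearts. None of these markers was at 0 throughout, and their part in the rise of Ereg was not tested.

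Hbegf (heparin-binding EGF-like growth factor), which binds EGFR and ERBB4, also rose. It had 250 and 257 normalized counts in PKM2fl/fl hearts at baseline, 380, 311 and 298 after sham surgery, and 696, 430 and 529 after MI. PKM2-/- hearts had 211 and 286 at baseline, 267, 320 and 288 after sham surgery, and 884, 603 and 433 after MI. In each genotype the 3 MI hearts were above all sham hearts, and the spread among them was wide. The rise was 1.65-fold in PKM2fl/fl hearts (log2 0.72, standard error 0.22, adjusted p = 0.0140 from limma) and 2.10-fold in PKM2-/- hearts (log2 1.07, standard error 0.22, adjusted p = 7.57e-04). The call in PKM2fl/fl hearts was lost without MI replicate 1, which had the 696 normalized counts (0.54, adjusted p = 0.0733 from limma), and without sham replicate 3 (0.65, adjusted p = 0.0507). Scaling to total reads, under which the median gene had -0.18, also ended it (0.54, adjusted p = 0.206 from limma).

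Nrg1 (neuregulin-1, chromosome 8, 31807452 to 32891609) varied widely between hearts of the same group. It had 1481 and 552 normalized counts in PKM2fl/fl hearts at baseline, 707, 1399 and 1418 after sham surgery, and 1391, 1805 and 3649 after MI. Without PKM2 the counts were 209 and 528 at baseline, 558, 206 and 625 after sham surgery, and 885, 1903 and 2025 after MI. The PKM2-/- MI hearts were above the PKM2-/- sham hearts without overlap, whereas in PKM2fl/fl hearts MI and sham overlapped. Nrg1 rose 3.61-fold with MI in PKM2-/- hearts (log2 1.85, standard error 0.52, adjusted p = 0.00670 from limma). In PKM2fl/fl hearts the value was 0.90 (standard error 0.52, adjusted p = 0.164), and the difference between the genotypes did not pass (interaction 0.95, standard error 0.74, adjusted p = 0.756).

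Mesothelial and epicardial markers were set beside Nrg1. In PKM2-/- hearts 7 of these 8 markers rose with MI and in PKM2fl/fl hearts 1 did, with median log2 fold changes of 3.13 and 0.94. Their summed level was 380 to 565 in the PKM2fl/fl sham hearts, 631 to 1574 in the PKM2fl/fl MI hearts, 413 to 803 in the PKM2-/- sham hearts and 705 to 1160 in the PKM2-/- MI hearts. The highest sum, 1574, was in the same heart as the highest Nrg1 (PKM2fl/fl MI replicate 3), but the order of the hearts was not shared throughout. The highest sum of the sham hearts, 803, was in PKM2-/- sham replicate 2, which had the lowest Nrg1 of the 16 hearts (206), and in both baseline pairs the heart with the higher sum had the lower Nrg1. The sum gives most weight to the most abundant markers, and single markers ranged from -0.16 to 3.98 on the log2 scale with MI in PKM2-/- hearts. The order of the hearts by the sum therefore need not be their order by each marker. None of the 8 was at 0 throughout, and their part in the Nrg1 values was not tested. Endothelial markers, of the cells named above as the source of neuregulin-1, gave 2 higher and 1 lower of 8 with MI in PKM2fl/fl hearts and 2 higher and 2 lower in PKM2-/- hearts.

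Btc (betacellulin), a ligand of EGFR and ERBB4, was the only ligand that fell among the 4 tested. It had 67.5 and 68.3 normalized counts in PKM2fl/fl hearts at baseline, 71.7, 50.3 and 72.6 after sham surgery, and 30.9, 52.5 and 21.9 after MI. The PKM2-/- counts were 58.3 and 69.6 at baseline, 54.7, 65.3 and 97.1 after sham surgery, and 28.4, 21.6 and 37.5 after MI. The PKM2-/- MI hearts were all below the PKM2-/- sham hearts, and in PKM2fl/fl hearts MI replicate 2 lay above sham replicate 2. The log2 fold change was -0.94 in PKM2fl/fl hearts (standard error 0.32, adjusted p = 0.0228 from limma) and -1.27 in PKM2-/- hearts (standard error 0.32, adjusted p = 0.00302). In PKM2fl/fl hearts the call was lost without sham replicate 1 (-0.85, adjusted p = 0.0745 from limma), without sham replicate 3 (-0.85, adjusted p = 0.0753), without MI replicate 1 (-0.89, adjusted p = 0.0578) and without MI replicate 3 (-0.65, adjusted p = 0.117). It was also lost with only the groups compared in the fit (adjusted p = 0.0569) and with library weights (adjusted p = 0.0653). Scaling to total reads, under which the median gene had 0.52, ended the call in PKM2-/- hearts (-0.77, adjusted p = 0.123 from limma).

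Areg (amphiregulin), a ligand of EGFR, had a mean of 1.06 normalized counts over the 16 hearts, under the minimum of 10 for a test. It had 0 reads in 11 libraries and 2 to 6 reads in the other 5. Of those 5, 1 was a PKM2fl/fl sham heart with 1.18 normalized counts, and the others were MI hearts, with 6.18 and 1.83 in PKM2fl/fl and 4.86 and 2.89 in PKM2-/- hearts. A count of 0 allows up to 3 reads in a library, equal to 1.47 to 5.50 normalized counts here, so a single library at 0 does not decide a difference. Without the filter on low values, MI against sham did not pass (adjusted p = 0.297 in PKM2fl/fl and 0.106 in PKM2-/- hearts, from limma).

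**Figure D1:**
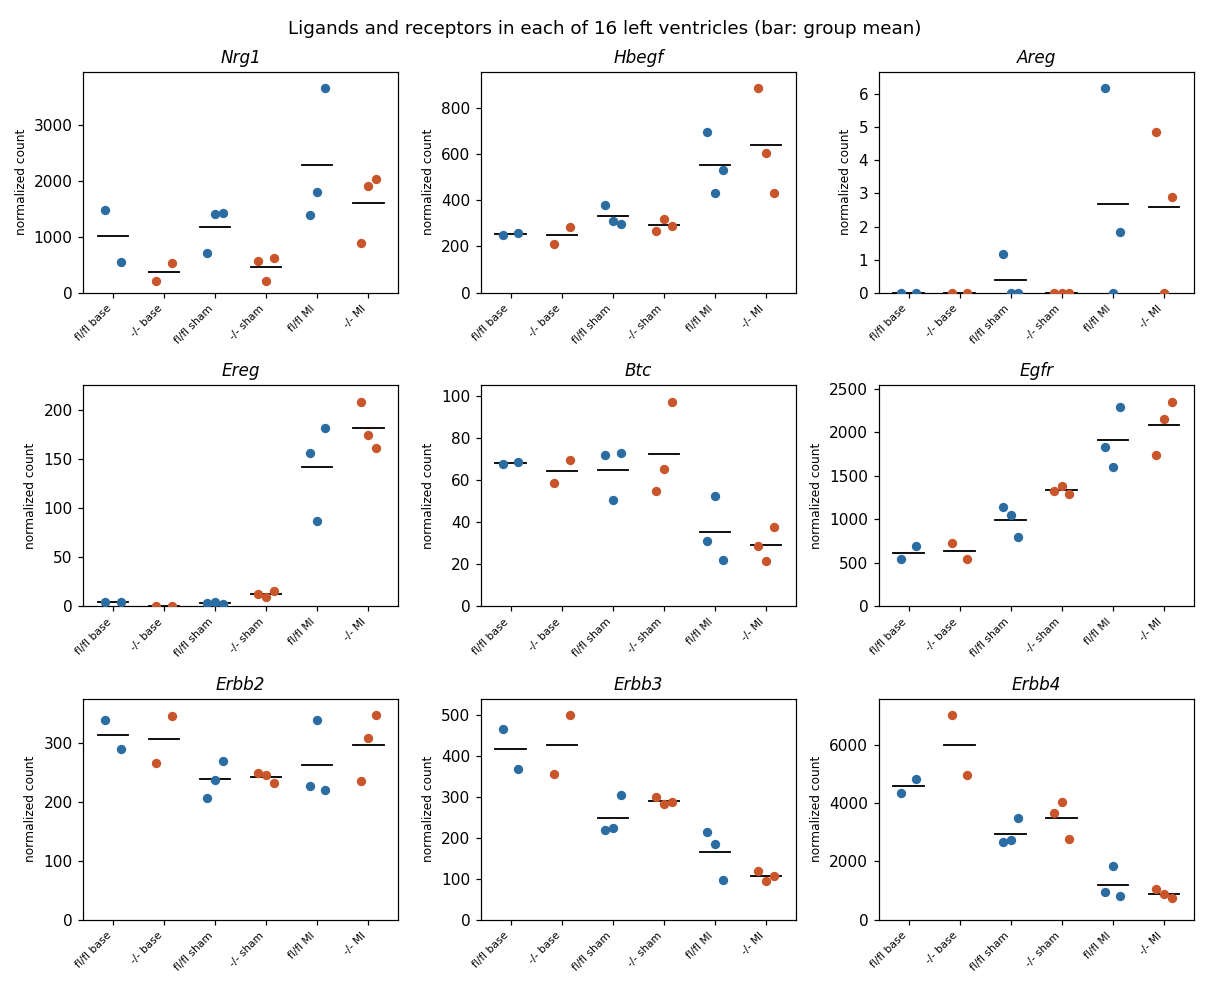
Normalized count (linear axis from 0) of each ligand and receptor in the 16 left ventricles, by group. Each point is a heart, PKM2fl/fl in blue and PKM2-/- in orange, and the bar is the group mean. Ereg lies between 86.8 and 208 in the MI hearts and at most at 15.1 in the others, and Erbb4 is lowest in the MI hearts.

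Of the receptors, Egfr (chromosome 11, 16752203 to 16913907) rose with MI. It had 546 and 687 normalized counts in PKM2fl/fl hearts at baseline, 1137, 1051 and 790 after sham surgery, and 1833, 1596 and 2293 after MI. PKM2-/- hearts had 720 and 541 at baseline, 1318, 1386 and 1286 after sham surgery, and 1733, 2148 and 2349 after MI. In both genotypes every MI heart was above every sham heart, and every sham heart was above every baseline heart. The rise with MI was 1.92-fold in PKM2fl/fl hearts (log2 0.94, standard error 0.17, adjusted p = 2.79e-04 from limma) and 1.55-fold in PKM2-/- hearts (log2 0.63, standard error 0.17, adjusted p = 0.00477). Scaling to total reads, under which the median gene had 0.52 in the PKM2-/- comparison, gave 1.14 for Egfr there. The sums of fibroblast and macrophage markers given beside Ereg were higher in all 6 MI hearts than in the 6 sham hearts, those of the neutrophil markers overlapped, and their part in the rise of Egfr was not tested.

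Erbb4 (chromosome 1, 68031884 to 69108576) fell. It had 4340 and 4823 normalized counts in PKM2fl/fl hearts at baseline, 2660, 2733 and 3488 after sham surgery, and 948, 1832 and 816 after MI. Without PKM2 the counts were 7026 and 4979 at baseline, 3662, 4046 and 2788 after sham surgery, and 1041, 885 and 753 after MI. The 6 MI hearts were below the 6 sham hearts without overlap. Erbb4 fell to 0.383 of the sham level in PKM2fl/fl hearts (log2 fold change -1.39, standard error 0.25, adjusted p = 2.57e-04 from limma) and to 0.256 in PKM2-/- hearts (-1.96, standard error 0.25, adjusted p = 8.25e-06).

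Erbb3 (chromosome 10, 128567523 to 128589635) also fell. It had 466 and 369 normalized counts in PKM2fl/fl hearts at baseline, 219, 225 and 305 after sham surgery, and 215, 184 and 96.9 after MI. The PKM2-/- counts were 357 and 500 at baseline, 301, 282 and 289 after sham surgery, and 118, 94.0 and 107 after MI. The MI and sham hearts did not overlap in either genotype, but in PKM2fl/fl hearts MI replicate 1 and sham replicate 1 were close. The log2 fold change was -0.65 in PKM2fl/fl hearts (standard error 0.24, adjusted p = 0.0351 from limma) and -1.45 in PKM2-/- hearts (standard error 0.24, adjusted p = 1.14e-04). The call in PKM2fl/fl hearts was lost without MI replicate 3 (-0.31, adjusted p = 0.197 from limma) and without sham replicate 3 (-0.50, adjusted p = 0.144). It was also lost with only the groups compared (adjusted p = 0.108 from limma), without the filter on low values (0.0556), with total count scaling (0.0574) and with library weights (0.107).

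Erbb2 (chromosome 11, 98412484 to 98437716) was the receptor with the narrowest spread, with a coefficient of variation of 17.9% over the 16 hearts. It had 339 and 291 normalized counts in PKM2fl/fl hearts at baseline, 207, 238 and 270 after sham surgery, and 227, 340 and 221 after MI. PKM2-/- hearts had 267 and 346 at baseline, 249, 246 and 233 after sham surgery, and 236, 309 and 348 after MI. MI and sham hearts overlapped in both genotypes. The log2 difference was 0.12 in PKM2fl/fl hearts (95% interval -0.27 to 0.51, adjusted p = 0.618 from limma) and 0.28 in PKM2-/- hearts (-0.12 to 0.67, adjusted p = 0.215). Scaling to total reads turned the sign in PKM2fl/fl hearts (-0.06) and gave 0.79 in PKM2-/- hearts (adjusted p = 0.0437 from limma). Under that scaling the median of all genes was -0.18 and 0.52 in these comparisons.

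The falls of Erbb4 and Erbb3 stood beside a fall of cardiomyocyte markers. For Erbb3, Schwann cell markers were set beside the fall as well, and those went both ways. The cardiomyocyte markers had a median log2 fold change with MI of -1.70 in PKM2fl/fl and -2.06 in PKM2-/- hearts. In PKM2fl/fl MI hearts, replicate 3 had the lowest sum of cardiomyocyte markers (176807) and the lowest Erbb4 and Erbb3. Replicate 1, however, had a higher sum than replicate 2 (406338 against 381866) and a lower Erbb4 (948 against 1832). In PKM2-/- MI hearts replicate 3 had the lowest sum (181446) and the lowest Erbb4 (753), and replicate 2 had the lowest Erbb3 (94.0). Both receptors also had lower values after sham surgery than at baseline, but neither passed in either genotype. In PKM2fl/fl and PKM2-/- hearts the adjusted p was 0.506 and 0.124 for Erbb4 and 0.361 and 0.305 for Erbb3 (limma). In the same comparisons the cardiomyocyte markers had medians of 0.05 and 0.02, and none of them passed. Of the 8 Schwann cell markers, 1 was at 0 throughout and 6 could be tested, of which 4 fell and 1 rose in each genotype, with medians of -0.98 and -0.85. The summed level of the Schwann cell markers was 601 to 911 in sham hearts and 793 to 949 in MI hearts. The part of either cell type in the receptor values was not tested.

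**Figure D2:**
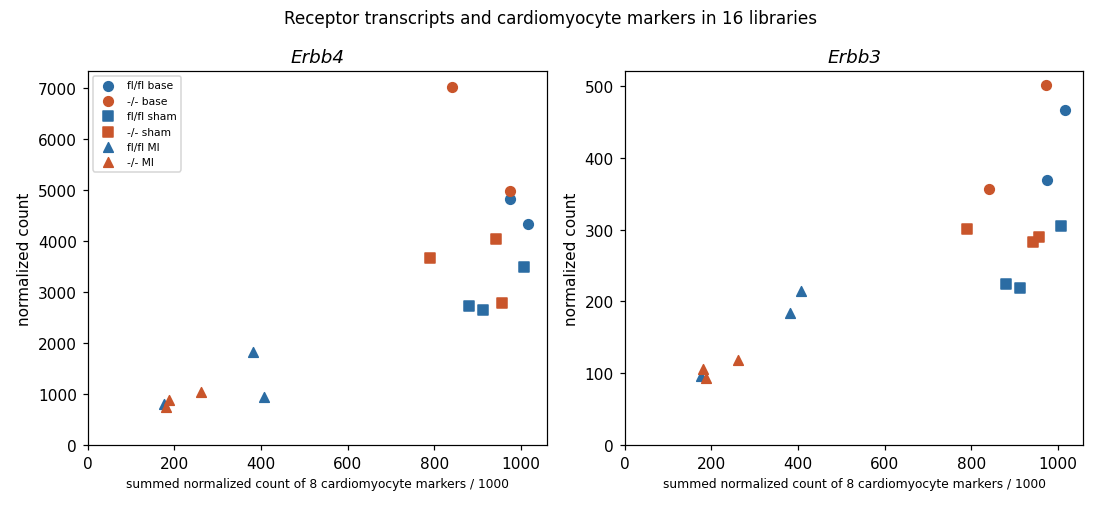
Normalized count of Erbb4 (left) and Erbb3 (right) against the summed normalized count of 8 cardiomyocyte markers divided by 1000, linear axes from 0. Each point is a heart, PKM2fl/fl in blue and PKM2-/- in orange, with circles for baseline, squares for sham and triangles for MI. The 6 MI hearts lie at the lower left, with at most 1832 counts of Erbb4 and 215 of Erbb3.

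Counted together, 6 of the 8 tested members passed in MI against sham in PKM2fl/fl hearts, where 50.1% of all 20576 tested genes passed. Of these, 3 rose (24.8% of all genes) and 3 fell (25.3%), and 2, Ereg and Erbb4, also changed at least 2-fold (23.5%). In PKM2-/- hearts 7 of 8 passed, against 56.8% of all genes, with 4 higher (28.7%) and 3 lower (28.1%), and 6 changed at least 2-fold (28.8%). The median log2 fold change of the 8 members was 0.42 and 0.45 in PKM2fl/fl and PKM2-/- hearts, and that of all genes was -0.00 and 0.01. With scaling to total reads, genes that rose made up 39.4% of the calls in PKM2fl/fl hearts and 79.2% in PKM2-/- hearts, in place of 49.5% and 50.5%, and the members that passed numbered 4 and 7. Nrg1 passed in PKM2-/- hearts but not in PKM2fl/fl hearts, and it was the only member whose side of the threshold differed. The count in PKM2fl/fl hearts was 3 without sham replicate 3, 4 without MI replicate 1 and 4 without MI replicate 3.

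**Figure D3:**
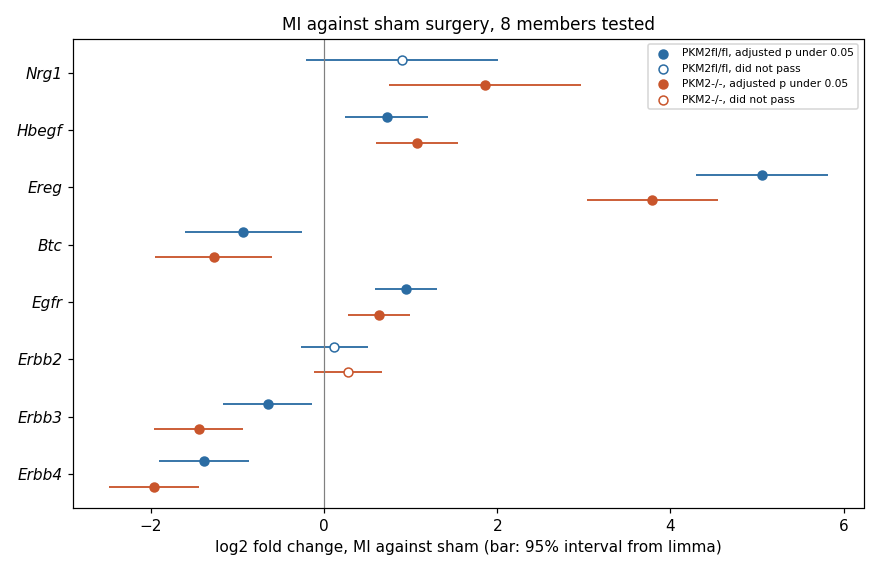
Log2 fold change of MI against sham surgery for the 8 members tested, PKM2fl/fl in blue and PKM2-/- in orange, with bars for the 95% interval from limma. Filled points have an adjusted p under 0.05 and open points do not. Ereg, Hbegf and Egfr lie above 0 and Btc, Erbb3 and Erbb4 below 0 in both genotypes.

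Genotype was compared at baseline, after sham surgery and after MI, and 0 of the 8 tested members passed in any of the comparisons. Of all genes, 0.00972% passed at baseline, 0.00972% after sham surgery and 0.967% after MI with limma. An unadjusted p under 0.05 was found for 2, 3 and 1 of the 8 members, and for 748, 2047 and 3492 of the 20576 genes. With the count models, edgeR gave 0 members in each comparison and DESeq2 gave 0, 1 (Ereg) and 0. The genotype by infarct interaction passed in 0 members and in 0% of all genes with limma, where 2 members and 1703 genes had an unadjusted p under 0.05 and DESeq2 and edgeR gave 60 and 0 genes and 0 members.

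Nrg1 was lower in PKM2-/- than in PKM2fl/fl hearts in every heart at baseline (209 and 528 against 552 and 1481) and after sham surgery (206 to 625 against 707 to 1418), and the groups overlapped after MI. Neither difference passed (log2 -1.44, standard error 0.64, adjusted p = 1 at baseline, and -1.43, standard error 0.52, adjusted p = 0.355 after sham, from limma). With scaling to total reads, under which the median gene had -0.59 and -0.33, both passed (-2.03, adjusted p = 0.0252, and -1.75, adjusted p = 0.00673, from limma). After sham surgery the mesothelial and epicardial markers had a median log2 difference of -1.93 (range -3.22 to 0.83), and none of them passed. Their part in the Nrg1 difference was not tested.

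Ereg had few reads in the baseline and sham hearts. At baseline the 0 reads in the PKM2-/- libraries, each taken alone, allow up to 3.50 and 5.50 normalized counts, on either side of the PKM2fl/fl values of 3.92 and 3.98. The limit for both libraries together is lower and was not computed, so these floors do not decide whether the genotypes differed. The fitted log2 difference there was -2.31 with an adjusted p of 0.266 (limma), and it was -5.34 with an adjusted p of 6.41e-04 when 0.1 was added in place of 1 before taking logs. After sham surgery all 3 PKM2-/- hearts (12.9, 9.14 and 15.1, from 8, 7 and 14 reads) were above all 3 PKM2fl/fl hearts (1.96 to 4.11, from 4 to 6 reads). That difference was 1.68 (standard error 0.36) with an adjusted p of 0.105 from limma and 2.05 with an adjusted p of 0.0251 from DESeq2. After MI the genotypes overlapped (0.41, standard error 0.36, adjusted p = 0.594 from limma).

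Erbb3 was lower in PKM2-/- than in PKM2fl/fl hearts after MI by 0.56 on the log2 scale (94.0 to 118 against 96.9 to 215), with overlap and without passing (standard error 0.24, adjusted p = 0.252 from limma). Without PKM2fl/fl MI replicate 3, whose value of 96.9 lay among the PKM2-/- values, it passed (-0.90, adjusted p = 0.00614 from limma). The interaction for Erbb3 was -0.80 (standard error 0.34, adjusted p = 0.573 from limma) and -1.14 without the same heart (adjusted p = 0.0285). Leaving out this heart raised the calls over all genes from 199 to 2271 for genotype after MI and from 0 to 484 for the interaction. Its sum of cardiomyocyte markers was the lowest of its group (176807 against 381866 and 406338), and the part of this in the Erbb3 values was not tested. Egfr was higher in all PKM2-/- than in all PKM2fl/fl hearts after sham surgery, by 0.44 (standard error 0.17, adjusted p = 0.387 from limma). The 95% intervals of the genotype differences after MI were -0.87 to 0.18 for Erbb4, -0.23 to 0.49 for Egfr, -0.29 to 0.66 for Hbegf and -0.20 to 0.58 for Erbb2.

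**Figure D4:**
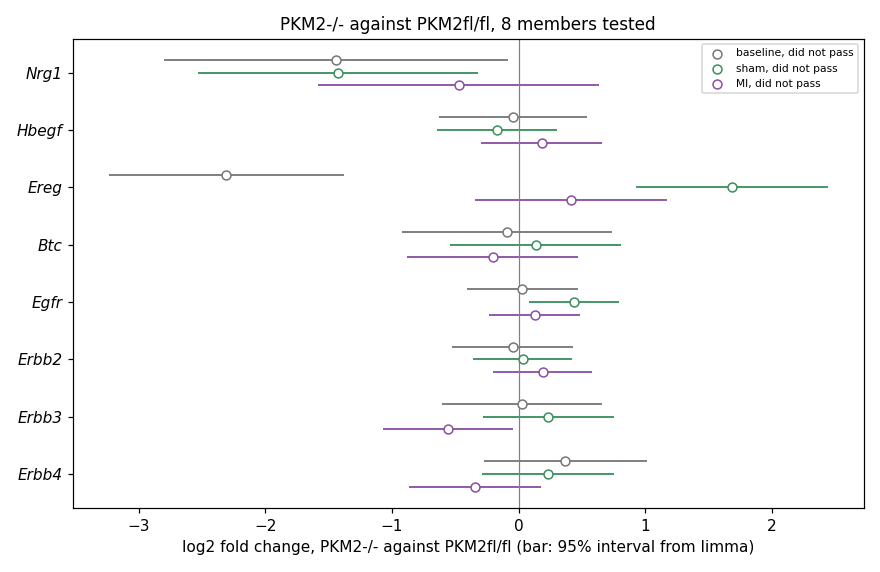
Log2 fold change of PKM2-/- against PKM2fl/fl for the 8 members tested, at baseline (grey), after sham surgery (green) and after MI (purple), with bars for the 95% interval from limma. All points are open, since none had an adjusted p under 0.05. Ereg lies at -2.31 at baseline and 1.68 after sham surgery.

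Sham surgery was set against baseline in each genotype. The labels do not say whether baseline and operated hearts were collected or sequenced together, so the operation and such handling cannot be told apart. In PKM2-/- hearts 2 of the 8 tested members passed, against 5.14% of all genes. Egfr rose 2.13-fold (log2 1.09, standard error 0.19, adjusted p = 0.00501 from limma), and it did not pass without baseline replicate 2 (0.88, adjusted p = 0.0733). Ereg rose from 0 reads and was at least 2.75-fold higher after sham surgery and at least 40.4-fold higher after MI than the mean of the baseline floors of 3 reads per library, with an adjusted p of 2.42e-04 from limma after sham surgery and 0.156 from limma-voom. In PKM2fl/fl hearts 0 of 8 passed with limma, against 0.19% of all genes, and 3 members and 1813 of the 20576 genes had an unadjusted p under 0.05. DESeq2 called 1 of them, Egfr, and edgeR called 0. Those 3 were Egfr (0.68, adjusted p = 0.171 from limma), Erbb3 (-0.75, adjusted p = 0.361) and Erbb4 (-0.64, adjusted p = 0.506). The sham hearts lay apart from the baseline hearts in each of them, and also in Hbegf (higher) and Erbb2 (lower). The share of all genes that lay apart in this way was not computed. For Egfr, the value without sham replicate 3 was 0.84 (adjusted p = 0.0438 from limma). Both comparisons use the same sham hearts as MI against sham. In PKM2-/- hearts 6 of the 8 neutrophil markers rose with sham surgery, and their part in the Ereg and Egfr values was not tested.

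Levels were set side by side per kilobase of exon, since the genes differ in length. In the PKM2fl/fl sham hearts Erbb4 had 232 ± 36.0 normalized counts per kilobase (SD, n = 3), followed by Egfr at 85.9 ± 15.6, Nrg1 at 70.4 ± 24.3 and Hbegf at 64.5 ± 8.67. Erbb2 had 44.0 ± 5.79, Erbb3 39.6 ± 7.64, Btc 14.2 ± 2.77, Ereg 0.718 ± 0.249 and Areg 0.320 ± 0.555. The ranges of Egfr, Nrg1 and Hbegf overlapped between neighbours, as did those of Erbb2 and Erbb3 and those of Ereg and Areg, and the other neighbours did not overlap. In the PKM2fl/fl MI hearts the order was Egfr (165 ± 30.7 per kilobase), Nrg1 (137 ± 72.0), Hbegf (108 ± 26.3) and Erbb4 (94.0 ± 43.3), with overlap between neighbours, and Ereg had 31.8 ± 11.1. The length of the longest transcript in place of all exons raised Nrg1 to 166 and Hbegf to 114 per kilobase in the sham hearts, which put both above Egfr (97.1). In the MI hearts that length gave 322 for Nrg1, 191 for Hbegf and 187 for Egfr per kilobase, so the order of these 3 depends on the length used.

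The other genes of the pathway were grouped by role. These lists were drawn up with earlier results of these data known, so the counts describe the lists and do not test them. Beside each count stands the share of all tested genes. Of these, 24.8% rose and 25.3% fell with MI in PKM2fl/fl hearts, and 28.7% rose and 28.1% fell in PKM2-/- hearts. Of 5 other ligands tested, 2 fell with MI in PKM2fl/fl hearts and 3 did not pass. Egf itself went from 308 ± 68.0 to 98.6 ± 64.6 normalized counts (SD, n = 3 each; log2 fold change -1.79, standard error 0.36, adjusted p = 7.76e-04 from limma). Nrg2, a second neuregulin gene, went from 164 ± 17.1 to 78.9 ± 10.7 (-1.05, standard error 0.20, adjusted p = 5.46e-04). Only Egf passed in PKM2-/- hearts (-1.67, adjusted p = 0.00111 from limma), and Nrg2 had -0.26 (adjusted p = 0.296).

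The list for release and processing of the ligands held 11 genes, namely proteases, cofactors and Timp3, an inhibitor of such proteases. In PKM2fl/fl hearts 9 rose and 1 fell (24.8% and 25.3% of all genes), and in PKM2-/- hearts 8 rose and 2 fell (28.7% and 28.1%). The 1 that fell in PKM2fl/fl hearts was Timp3 (log2 -0.64, adjusted p = 3.88e-04 from limma). The membrane metalloproteases Adam12, Adam19 and Adam9 had the smallest p. Adam12, which can shed Hbegf, went up from 235 ± 77.0 normalized counts in sham hearts to 2825 ± 780 in MI hearts (SD, n = 3 each), or by 3.59 on the log2 scale (standard error 0.26, adjusted p = 1.16e-07 from limma). Adam19 rose by 1.15 and Adam9 by 1.09 on the log2 scale (adjusted p = 2.64e-06 and 4.18e-06 from limma).

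Of 26 tested adaptors and kinases downstream of the receptors, 7 rose and 10 fell in PKM2fl/fl hearts (24.8% and 25.3% of all genes), and 7 rose and 8 fell in PKM2-/- hearts (28.7% and 28.1%), so that the shares that rose were near those of all genes. Pik3r1, a regulatory subunit of phosphoinositide 3-kinase, fell from 7696 ± 1001 to 3569 ± 310 normalized counts in PKM2fl/fl hearts (log2 fold change -1.10, adjusted p = 4.26e-05 from limma). Pik3cb, a catalytic subunit of the same enzyme, rose by 0.54, and Gab2, a docking protein, by 0.84 (adjusted p = 2.19e-04 and 1.93e-04 from limma). The median of this list was 0.04 and -0.06 in the genotypes.

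Of 22 feedback inhibitors and turnover genes, 12 rose and 10 did not pass in PKM2fl/fl hearts (24.8% of all genes rose), and 10 rose and 1 fell in PKM2-/- hearts (28.7% and 28.1%). Ptpn1, a phosphatase that acts on the receptors, rose from 908 ± 139 normalized counts in sham to 2138 ± 228 in MI hearts (SD, n = 3 each; log2 1.24, adjusted p = 6.77e-07 from limma), Cbl, a ubiquitin ligase that marks EGFR for degradation, by 0.94, and Spred1, an inhibitor of the Ras pathway, by 0.92. Ptpn1 was also the only gene of the 5 lists that passed a genotype comparison. After MI it was higher in PKM2-/- hearts by 0.49 (2992 ± 54.3 against 2138 ± 228 normalized counts, standard error 0.11, adjusted p = 0.0494 from limma). That value is close to the threshold of 0.05. The calls over all genes in this comparison ranged from 6 to 2271 under the alternatives, and Ptpn1 was not followed under them.

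Of 14 transcripts induced downstream of ERK, the kinase at the end of the Ras pathway, 10 rose with MI in each genotype and 4 did not pass, where 24.8% and 28.7% of all genes rose in PKM2fl/fl and PKM2-/- hearts. Plaur rose from 66.2 ± 8.58 to 483 ± 164 normalized counts in PKM2fl/fl hearts (log2 2.79, adjusted p = 1.20e-05 from limma), Myc from 67.0 ± 6.86 to 467 ± 168 (2.71, adjusted p = 2.23e-06) and Egr3 from 13.7 ± 2.61 to 99.1 ± 31.1 (2.74, adjusted p = 9.18e-05). Plaur and Myc rose in PKM2-/- hearts by 2.13 and 2.11, and Egr3 had 0.94 with an adjusted p of 0.0747 (limma). The median of the list was 1.07 and 0.92 in the genotypes, against -0.00 and 0.01 over all genes, and these genes also respond to many signals other than this family.

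**Figure D5:**
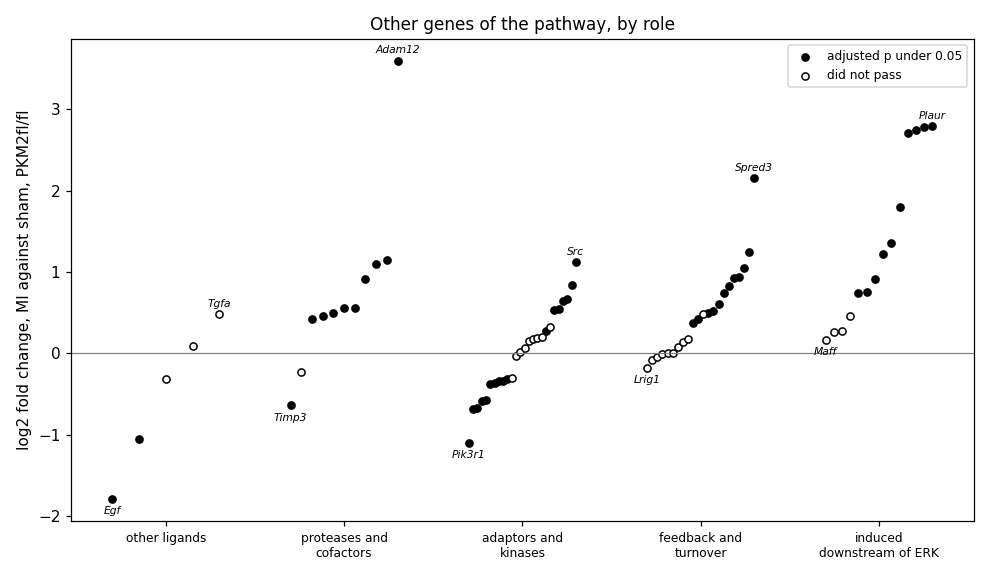
Log2 fold change of MI against sham surgery in PKM2fl/fl hearts for the other genes of the pathway, in 5 groups by role. Each point is a gene, filled where the adjusted p was under 0.05, and the lowest and highest gene of each group are named. The 9 proteases and cofactors that rose and the 10 transcripts downstream of ERK that rose lie above 0, and Egf is the lowest of the other ligands at -1.79.

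For each tested member the genes most alike over the 16 libraries were found by Pearson correlation of log2 values, a description in which group differences and within-group spread are mixed. Erbb4 was most like Fgf14 (r = 0.98), Nckap5 and Fgf13, and Erbb3 was most like Pik3c2b (r = 0.98), Gal3st3 and Tmem266. Ereg was most like Dbn1 (r = 0.99), Adcy7 and Kntc1, and Egfr was most like Tnfaip6 (r = 0.98), Skil and Csf3r, the last being 1 of the 8 neutrophil markers. Hbegf was most like Arf1 (r = 0.96), Riok1 and Uck2, Btc was most like Zfp933 (r = 0.96), Acss2 and Zmynd11, and Nrg1 was most like Slc30a6 (r = 0.93), Bnc1 and Rpl7-ps8. The best value for Erbb2, 0.79 with Gm28308, was the lowest of the 8, and Gimap1 and Cbx6 followed. Among the members, Erbb3 and Erbb4 had r = 0.92 over the 16 libraries and 0.31 after the group means were removed, and Egfr and Erbb3 had -0.91 and -0.80.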

How the data were processed

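Left ventricles of 16 mice were sequenced, and groups were taken from the labels. Per the study's methods and the submitters' processing notes, reads were aligned to mm10 with HISAT2, counted with featureCounts and normalized with DESeq2. The authors deposited 1 table of normalized signal per gene and library (the read count divided by a size factor), the mean signal over the libraries, and columns of their own baseline comparison, namely a log2 fold change with its error, a Wald score and a p-value with its adjusted form, which were not used. Strand and multi-mapping settings are not given in the sources used here.

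The signal of every library was a whole multiple of 1 step (100% of values within 0.02 reads), which gave back the reads. The log2 of the value plus 1 was fitted with limma-trend 3.58.1 in R 4.3.3 over all 16 libraries in 6 groups (10 residual degrees of freedom), keeping 20576 genes whose mean was at least 10. Contrasts were adjusted by Benjamini-Hochberg over all of them. A gene passed at an adjusted p under 0.05, and the 2-fold rule was counted apart. Alternatives were count models fitted to those reads (edgeR 4.0.16, DESeq2 1.42.0, limma-voom), total count scaling, no filter, a pseudocount of 0.1, library weights, only the compared groups, the replicate number as a block and each library left out. The code was tested on simulated data. No pairs of libraries in a group were alike within sampling noise. Floors of 3 reads cover counting error only.

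The members and lists were chosen with earlier results of these data known. Named genes were the 9 members, of each pathway list at most 3 with the smallest p that passed in MI against sham in PKM2fl/fl hearts and at most 2 that passed a genotype contrast or the interaction, the 3 genes most alike to each tested member, and Pkm. Epgn, for its position, and Timp3, for its role, were added after their values were seen. Positions and promoter windows are from RefSeq on GRCm38.p6, the assembly of mm10, exon lengths from GENCODE M39 matched by symbol.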

Additional observations from a re-analysis of the deposited data

Results flagged for a closer look

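Ereg had unlike fitted genotype differences at baseline and after sham surgery, -2.31 and 1.68 on the log2(value + 1) scale. Their difference was 3.99 (standard error 0.56), with an unadjusted p of 3.57e-06 and an adjusted p of 0.0703 from limma, which did not pass, and the contrast was chosen after the values were seen. The baseline value rests on 0 reads in both PKM2-/- hearts. Each taken alone, they allow up to 3.50 and 5.50 normalized counts, against 3.92 and 3.98 in PKM2fl/fl hearts. These floors do not settle the sign of the baseline value, and its size is set by the number added before taking logs (-5.34 with 0.1). After sham surgery the values were 9.14 to 15.1 in PKM2-/- and 1.96 to 4.11 in PKM2fl/fl hearts, from 4 to 14 reads per library.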

How the results depend on the processing

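Of 15 member fold changes that passed, 9 passed under every alternative (Egfr, Erbb4 and Ereg with MI in both genotypes, and Erbb3, Hbegf and Nrg1 with MI in PKM2-/- hearts), and 0 of 1600 recomputed values of the members reversed a call. With each library left out, members passing numbered 3 to 6 for MI in PKM2fl/fl hearts, 7 for MI in PKM2-/- hearts, 0 for genotype at baseline and after sham, 0 to 1 for genotype after MI and for the interaction, 0 to 1 for sham against baseline in PKM2fl/fl and 1 to 3 in PKM2-/- hearts. For sham against baseline in PKM2-/- hearts, Erbb4 also passed without PKM2fl/fl MI replicate 2 (-0.77, adjusted p = 0.0295 from limma). Genotype at baseline gave 1 member with a pseudocount of 0.1 (Ereg) and 1 with total count scaling (Nrg1), and genotype after sham gave 1 with total count scaling (Nrg1), 1 with library weights (Ereg) and 1 with DESeq2 (Ereg). With library weights, genotype after MI gave 1 (Erbb3) and sham against baseline in PKM2fl/fl hearts gave 2 (Egfr, Erbb3), where DESeq2 gave 1 (Egfr). Limma-voom gave 1 for sham against baseline in PKM2-/- hearts. Over all genes, the calls ranged from 6005 (total count scaling) to 11167 for MI in PKM2fl/fl hearts, 6 (only the compared groups) to 2271 (without PKM2fl/fl MI replicate 3) for genotype after MI, 0 to 266 (DESeq2) after sham, 0 to 44 (total count scaling) at baseline, 0 to 484 (without PKM2fl/fl MI replicate 3) for the interaction, and 1 to 749 (library weights) and 317 (without PKM2-/- baseline replicate 2) to 1426 for sham against baseline in PKM2fl/fl and PKM2-/- hearts. The causes were not tested.

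With the replicate number as a block, members passing numbered 6 and 7 for MI in PKM2fl/fl and PKM2-/- hearts, 0 for each genotype contrast and the interaction, and 0 and 2 for sham against baseline. The numbers belong to separate mice and did not pair the libraries (median correlation of same-numbered libraries -0.03, of others 0.01). Depth limits Ereg at baseline and sham, Areg and Epgn.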
